A study of Mus musculus with 10 samples.

Results

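The immediate early genes studied here are Fos, Fosb, Fosl1, Fosl2, Jun, Junb, Egr1, Atf3, Myc and Ier3, described across pancreas tissue of mice in which 0, 1 or 2 copies of Insr, the gene of the insulin receptor, were floxed. The 10 genes were chosen by symbol, and they are 10 of the 24421 genes in the deposited count table. RNA was sequenced from a frozen, pulverised piece of the tail of the pancreas of 10 female mice aged 12 weeks. All mice carried Ptf1aCreER, an inducible Cre driven by the acinar cell gene Ptf1a, and nTnG, a reporter that marks recombined nuclei. Mice with Insr w/w, which have no floxed allele, form the WT group (n = 3), mice with Insr w/f the Het group (n = 3), and mice with Insr f/f the KO group (n = 4). Cre acts in acinar cells, while the piece of tissue also holds duct, islet, stromal, immune and vessel cells that keep their insulin receptor. The labels count 4 WT mice, of which 1 was not analysed here. Mice are named below by their group and number (WT-2404, WT-1860 and WT-2067, Het-2066, Het-1770 and Het-2042, KO-2079, KO-2070, KO-2124 and KO-2126).

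Immediate early genes are transcribed within minutes of a growth factor, cytokine or stress signal without the need for new protein. Their promoters are bound beforehand by factors such as SRF with its ternary complex partners and CREB, which kinases of the ERK, JNK and p38 pathways activate. FOS and JUN proteins pair through leucine zippers to form the transcription factor AP-1, which binds a short palindrome in the control regions of protease, cytokine and matrix genes. Insulin, acting through its receptor, is one of the classical inducers of Fos and Egr1 in cultured cells, and in the exocrine pancreas these genes are known for their response to tissue injury and to the handling of the organ. In bulk tissue a lower level can mean fewer cells of a type or less RNA per cell, and these cannot be told apart.

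Sequences just upstream of the start site were taken from a set of RefSeq promoters (GRCm38.p6) that held 7 of the 10 genes. Absence from this set does not mean that RefSeq lacks a start site for the gene. The promoters of Ier3, Fos and Junb are shown because these 3 genes varied together across the mice. Capitals mark matches to the NF-kappaB consensus (searched by name on both strands) and to the TATA box TATAAA. The Ier3 sequence runs from position -150 to -30 of the RefSeq start (chr17:35821563-35821683, plus strand), the Fos sequence from -250 to -1 (chr12:85473640-85473889, plus strand) and the Junb sequence from -150 to -1 (chr8:84978749-84978898, minus strand).
Ier3: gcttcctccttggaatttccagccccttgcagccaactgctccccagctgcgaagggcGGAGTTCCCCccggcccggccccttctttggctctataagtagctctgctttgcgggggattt
Fos: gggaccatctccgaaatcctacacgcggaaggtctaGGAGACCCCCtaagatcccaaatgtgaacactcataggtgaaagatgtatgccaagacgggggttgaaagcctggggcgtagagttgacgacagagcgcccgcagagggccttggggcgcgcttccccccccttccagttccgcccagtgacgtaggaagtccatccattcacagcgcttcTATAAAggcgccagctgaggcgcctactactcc
Junb: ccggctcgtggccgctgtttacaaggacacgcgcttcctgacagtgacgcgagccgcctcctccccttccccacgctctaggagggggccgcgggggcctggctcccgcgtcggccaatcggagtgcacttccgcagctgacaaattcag
The NF-kappaB match of Ier3 (GGAGTTCCCC, minus strand) began at position -92 and that of Fos (GGAGACCCCC, minus strand) at -214, and the TATA box of Fos began at -33. Of the 7 genes in the set, 4 (Fosl2, Fosb, Fos and Ier3) held an NF-kappaB match in the 250 bases upstream. Of the 27025 promoters in the same set, 7.01% did. The TATA box was found upstream of the RefSeq start in 1 of the 7, Fos, against 3504 of the 27025 promoters. Junb held a TATAAA match that began at position 0, past the RefSeq start and so outside the sequence shown. That match lies upstream of the start that the GENCODE M21 annotation gives for Junb (chr8:84978718, minus strand). With the 50 bases past the RefSeq start counted as well, 2 of the 7 held the TATA box, against 14.2% of promoters. None of the 7 held the AP-1 site TGANTCA, the cAMP response element TGACGTCA or the CArG box that SRF binds in these 250 bases, against 6.87%, 1.62% and 1.40% of promoters. Only exact matches were counted, so near matches, such as tgacgtag in the Fos sequence shown, are not among them. The serum response element known for Fos lies further upstream than this window.

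The smallest library held 11718559 gene counts (WT-1860) and the largest 19024351 (Het-2042). The WT mice stood apart from each other: 29 acinar markers, mostly digestive enzymes, took 16.6% of gene counts in WT-2404 and 61.2% in WT-1860, against 65.5% to 80.8% in the other 8 mice. The TMM scaling factors, which correct for a few genes taking much of a library, therefore ran from 0.596 (KO-2126) to 3.53 (WT-2404). Levels are given as CPM, read counts scaled to a common library size after this correction. Insr itself lay at 21.0, 27.8 and 40.5 CPM in the WT mice, at 43.1, 44.2 and 28.2 in the Het mice and at 22.7, 33.3, 35.4 and 34.6 in the KO mice, so the groups overlapped and the total Insr level of the tissue did not separate the genotypes. No gene of the 13688 tested passed an adjusted p of 0.05 in any comparison by edgeR's quasi-likelihood test. The smallest adjusted p was 0.116 for KO against WT and 0.183 for Het against WT.

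**Figure D1:**
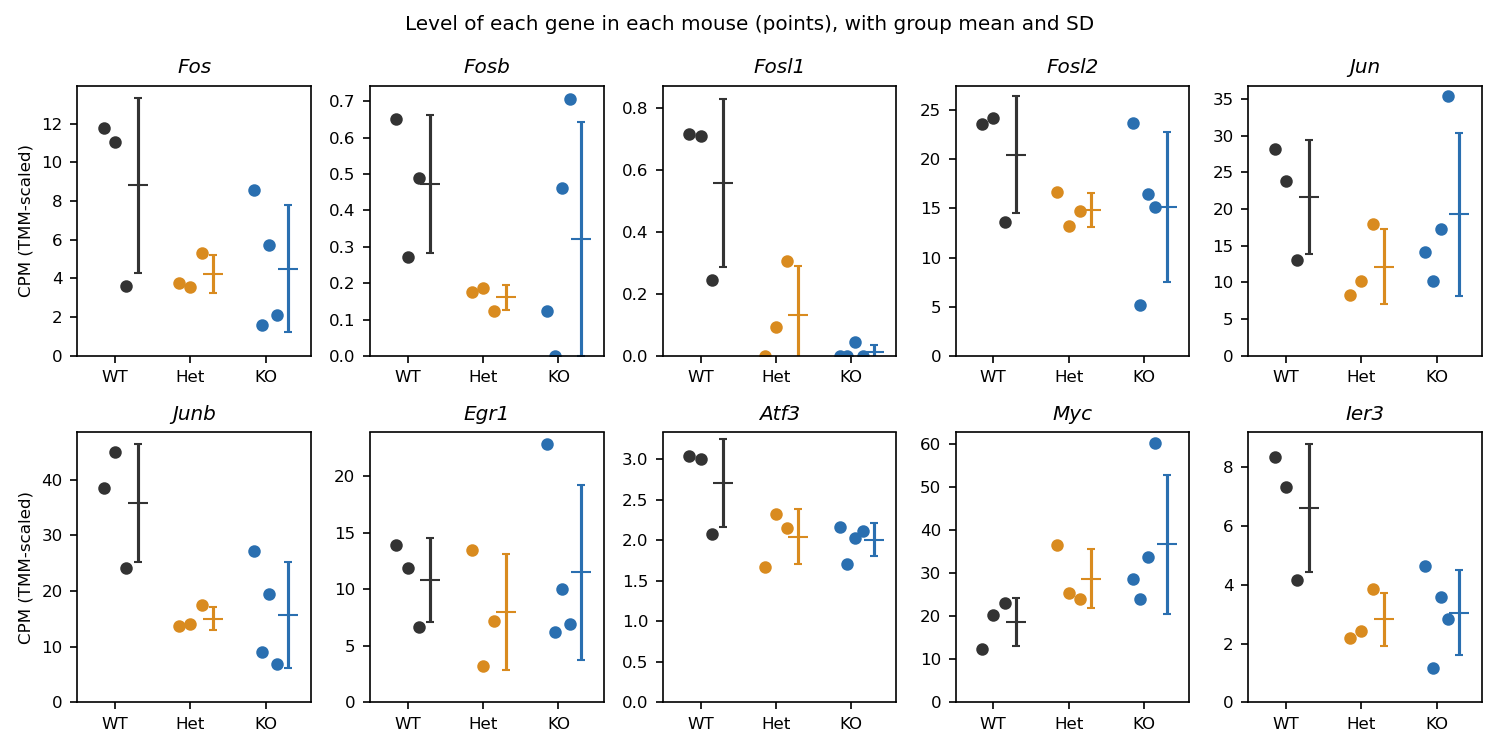
Level of each of the 10 genes in each mouse, in CPM on a linear axis from 0, with points for mice and the mean and SD of each group. WT-2404 and WT-1860 are high for Fos, Junb and Ier3, and KO-2079 lies above the other KO mice for Fos, Fosl2, Junb, Egr1 and Ier3, while Myc is lowest in WT-2404.

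Among the FOS family genes, Fos and Fosl2 were expressed at moderate levels and Fosb and Fosl1 at very low ones. Fos, the founding partner of JUN in AP-1, lay at 11.8, 11.0 and 3.61 CPM in WT-2404, WT-1860 and WT-2067. Het mice had Fos levels of 3.77, 3.54 and 5.34 CPM, and KO mice (in the order KO-2079, KO-2070, KO-2124 and KO-2126) of 8.59, 1.58, 5.71 and 2.12 CPM. WT-2404 and WT-1860 were above every other mouse, but WT-2067 was as low as the Het mice, and all 3 groups overlapped. The mean Fos level was 8.82 ± 4.52 CPM in WT (SD, n = 3), 4.22 ± 0.978 in Het (n = 3) and 4.50 ± 3.29 in KO (n = 4). The log2 fold change of Fos was -0.93 (SE 0.53) for KO against WT (edgeR adjusted p = 0.299, exact permutation p = 0.257) and -1.06 (SE 0.58) for Het against WT (edgeR adjusted p = 0.310). Neither difference passed the adjusted threshold, and the KO value was -1.42 without KO-2079.

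Fosl2 encodes FRA-2, a FOS family protein that lacks the strong transactivation domain of FOS. It lay at 23.6, 24.2 and 13.7 CPM in the WT mice, at 16.7, 13.2 and 14.7 CPM in the Het mice and at 23.7, 5.14, 16.5 and 15.1 CPM in the KO mice. KO-2079 reached the level of the highest WT mice and KO-2070 was the lowest of all 10, so the KO group spanned nearly the whole range. The log2 fold change was -0.43 (SE 0.38) for KO against WT, with an edgeR adjusted p of 0.506, and -0.46 (SE 0.41) for Het against WT, with an edgeR adjusted p of 0.517. The KO value was -0.15 without KO-2070 and -0.72 without KO-2079.

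Fosl1, which encodes FRA-1, the FOS family protein best known from invasive tumour cells and from sustained ERK activity, was the most uneven of the 10 genes and too low to enter the test. Its raw counts were 43, 13 and 4 in the WT mice, 0, 1 and 5 in the Het mice and 0, 0, 1 and 0 in the KO mice. All 3 WT mice lay above all 4 KO mice, as was so for 9.17% of the genes that entered the test, of which Fosl1 is not one. In CPM these were 0.718, 0.711 and 0.245 in WT, while the single count in KO-2124 stood for 0.0461. A count of 0 allows up to 3 counts, or 0.185 CPM in KO-2079, 0.395 in KO-2070 and 0.303 in KO-2126, and the last 2 of these limits lie above the level of WT-2067. Over pooled counts, WT exceeded KO by a ratio of 35.2 (exact 95% interval 6.07 to 1411.61, counting error only, from 60 against 1 counts). WT exceeded Het by a ratio of 4.07 (1.76 to 11.5, from 60 against 6 counts). The exact two-sided permutation test of the log2 CPM of WT against KO gave p = 0.0286, the smallest that 3 against 4 mice allow. After adjustment over the 10 genes the permutation p was 0.229. The exons of Fosl1 overlap those of Ccdc85b on the opposite strand, whose log2 fold change for KO against WT was 0.33 (SE 0.33, edgeR adjusted p = 0.553).

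Fosb, a FOS family member best known for its build-up after repeated stimulation of neurons, was also below the test's minimum. Raw counts were 39, 5 and 8 in WT, 2, 2 and 2 in Het and 2, 0, 10 and 7 in KO. The 3 Het mice, at 0.123 to 0.186 CPM, lay below the 3 WT mice, at 0.273 to 0.651 CPM, while KO-2126 had the highest level of all, 0.707 CPM. Het lay wholly below WT for 13.5% of the genes that entered the test, of which Fosb is not one. For 3 against 3 mice the exact permutation test cannot go below p = 0.10, which is the value Fosb gave for Het against WT. The pooled ratio of WT to Het was 3.52 (exact 95% interval 1.51 to 10.04) and that of WT to KO was 1.60 (0.932 to 2.87), the latter including 1.

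The JUN family genes differed from each other. Jun, which can form AP-1 with itself or with FOS proteins and is the main nuclear substrate of JNK, lay at 28.2, 23.8 and 13.05 CPM in WT, 8.33, 10.2 and 17.9 CPM in Het, and 14.2, 10.3, 17.3 and 35.3 CPM in KO. KO-2126 had the highest Jun level of the 10 mice, and the groups overlapped in each comparison. For KO against WT the log2 fold change was -0.17 (SE 0.42), with an edgeR adjusted p of 0.827. For Het against WT it was -0.83 (SE 0.45), with an edgeR adjusted p of 0.309. The KO value turned to 0.059 without WT-2404 and to 0.028 without KO-2070.

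Junb, whose protein is a weaker activator than JUN and often restrains it, had the lowest fold change of the 8 tested genes in both comparisons with WT. Its levels were 38.4, 44.9 and 24.1 CPM in WT, 13.7, 14.1 and 17.4 CPM in Het, and 27.3, 9.09, 19.5 and 6.87 CPM in KO. All 3 Het mice lay below all 3 WT mice (13.5% of all genes tested did so), while in KO only KO-2079 reached into the WT range. The log2 fold change of Junb was -1.17 (SE 0.40) for KO against WT, with an unadjusted edgeR p of 0.0136 and an adjusted p of 0.133. For Het against WT it was -1.25 (SE 0.44), with an unadjusted edgeR p of 0.0157 and an adjusted p of 0.189. DESeq2, a second count model, gave adjusted p-values of 0.0578 and 0.0809. The Junb exons overlap those of Prdx2 on the opposite strand, and whether the authors' counting used strand is not given in the sources used here. Prdx2 lay at 41.1 ± 12.5 CPM in WT, 33.5 ± 4.63 in Het and 33.5 ± 7.94 in KO (SD), with a log2 fold change of -0.29 for KO against WT (SE 0.24, edgeR adjusted p = 0.463). The exons of Jun likewise overlap an antisense RNA, Junos.

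Egr1 and Atf3 showed opposite kinds of spread. Egr1, a zinc finger factor and one of the fastest targets of ERK signalling, lay at 13.9, 11.9 and 6.68 CPM in WT, at 13.5, 3.26 and 7.24 CPM in Het and at 22.9, 6.19, 10.05 and 6.97 CPM in KO. Within Het and within KO the highest mouse was several times the lowest, and no group stood apart. Its log2 fold change was 0.10 (SE 0.52) for KO against WT (edgeR adjusted p = 0.923) and -0.44 (SE 0.56) for Het against WT (edgeR adjusted p = 0.670). The KO value turned to -0.48 without KO-2079, the mouse with the highest Egr1 level, and to -0.14 without WT-2067.

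Atf3, a stress-induced bZIP factor that pairs with JUN proteins and often represses, was the steadiest of the 10 genes. It lay at 3.04, 3.01 and 2.08 CPM in WT, 1.67, 2.33 and 2.15 CPM in Het, and 2.16, 1.71, 2.03 and 2.12 CPM in KO. WT-2404 and WT-1860 stood above the other 8 mice, which all lay between 1.67 and 2.33 CPM. The log2 fold change was -0.43 (SE 0.30) for KO against WT (edgeR adjusted p = 0.389, exact permutation p = 0.0857) and -0.41 (SE 0.32) for Het against WT (edgeR adjusted p = 0.473).

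Myc ran the other way. Myc encodes the bHLH-zipper factor that pairs with MAX and drives ribosome and nucleotide synthesis genes, and it is both an immediate early gene and needed for the growth of the exocrine pancreas. Its level was 12.3, 20.4 and 23.1 CPM in the WT mice, 36.6, 25.4 and 24.1 CPM in the Het mice, and 28.6, 24.1, 33.9 and 60.3 CPM in the KO mice. Every Het mouse (as for 11.3% of all genes tested) and every KO mouse (6.74%) lay above every WT mouse. In KO the gap was only that between 23.1 CPM in WT-2067 and 24.1 CPM in KO-2070. The mean was 18.6 ± 5.59 CPM in WT, 28.7 ± 6.84 in Het and 36.7 ± 16.2 in KO (SD, n = 3, 3 and 4). For KO against WT the log2 fold change was 0.99 (SE 0.33), with an unadjusted edgeR p of 0.0107, an adjusted p of 0.128 and an exact permutation p of 0.0571. For Het against WT it was 0.63 (SE 0.34), with an unadjusted edgeR p of 0.091 and an adjusted p of 0.307. KO-2126, the mouse with the highest Jun and the lowest Junb, carried the largest Myc value, and without it the KO fold change was 0.64. Scaled by library size alone, with no correction for the acinar genes, 20.7% of all genes passed the adjusted threshold for KO and 22.8% for Het against WT. Myc then showed -0.057 for KO and -0.51 for Het against WT. Under that scaling the median of all genes tested moved to -1.17 and -1.36, so Myc lay above the median gene under both scalings.

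Ier3, a small protein induced by NF-kappaB, growth factors and radiation that modulates cell death and prolongs ERK activity, followed Junb. Its level was 8.37, 7.32 and 4.16 CPM in WT, 2.19, 2.42 and 3.87 CPM in Het, and 4.64, 1.19, 3.59 and 2.83 CPM in KO. All Het mice were below all WT mice (as for 13.5% of all genes tested), and in KO only KO-2079 lay above the lowest WT mouse. The log2 fold change was -1.08 (SE 0.39) for KO against WT, with an unadjusted edgeR p of 0.0157 and an adjusted p of 0.139. It was -1.22 (SE 0.42) for Het against WT, with an unadjusted edgeR p of 0.0135 and an adjusted p of 0.184. Without WT-2067 the KO fold change was -1.31 and passed the threshold, with an edgeR adjusted p of 0.0453. In that fit 13.6% of all genes tested passed, against 0.0% with all mice.

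Per length, on the scale of CPM per kilobase of exon averaged over the 10 mice, Myc had the highest level (10.6 ± 4.76, SD) and Junb the next (9.36 ± 5.38), a difference well within their spread. Jun (5.60 ± 2.75), Ier3 (3.59 ± 1.99), Fos (2.43 ± 1.53), Egr1 (2.29 ± 1.25) and Fosl2 (1.72 ± 0.610) followed, each within the SD of its neighbour. Atf3 (1.04 ± 0.216) came below them, and Fosl1 (0.104 ± 0.141) and Fosb (0.0511 ± 0.0388) were roughly an order of magnitude lower still. The order of the leading pair differed by genotype: in WT the level of Junb was 15.6 ± 4.63 and that of Myc 6.85 ± 2.06 CPM per kilobase, while in KO the level of Junb was 6.82 ± 4.12 and that of Myc 13.5 ± 5.97 (SD). The change of order itself was not tested.

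The comparison of KO with WT asks what loss of the insulin receptor in acinar cells does to these genes, and none of the 8 tested genes passed the adjusted threshold (0.0% of all genes did). Without adjustment, Junb and Ier3 were lower and Myc was higher at an edgeR p under 0.05. Of all genes, 13.9% were lower and 9.6% higher by the same rule, so 3 of 8 lies against a background of 23.5%. Leaving out 1 mouse gave 2 (without WT-2404 or WT-1860) to 5 (without WT-2067) of the 8 to 10 genes then tested. The 5 include Fosl1, which entered that fit only through the WT mice, where it is high, so it is no support. In that fit 13.6% of all genes passed even after adjustment, and shares at an unadjusted p are not given for these fits. DESeq2 also called 0 of the 8, against 7.37% of all genes. The fold change was below 0 for 6 of the 8 genes, with a median of -0.43, against 48.2% of all genes and a median of 0.03. Without WT-2404, the mouse with few acinar transcripts, 5 of the 8 were below 0 and the median was -0.31.

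**Figure D2:**
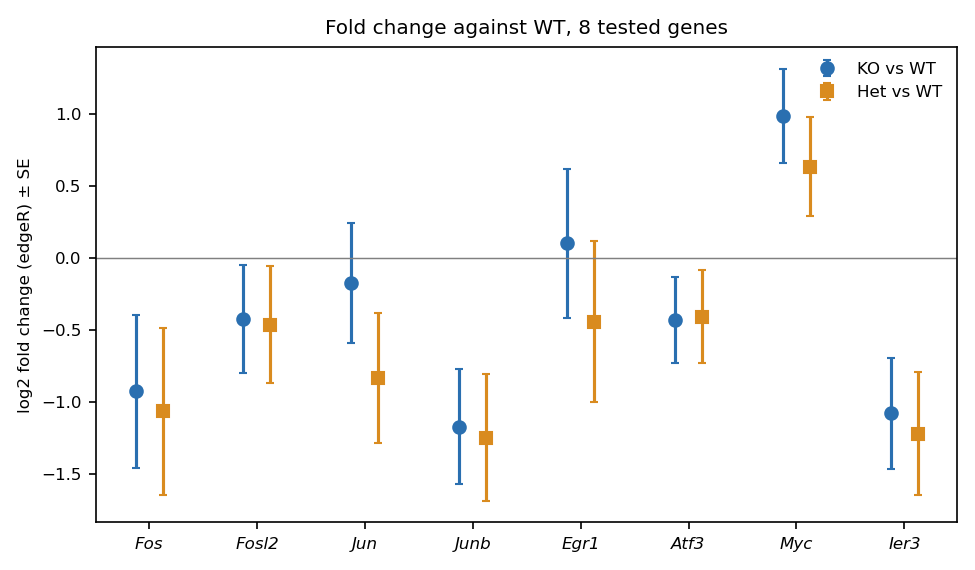
Log2 fold change of the 8 tested genes against WT (edgeR, vertical axis), with bars for the standard error, for KO (circles) and Het (squares). Junb and Ier3 lie below -1 and Myc above 0 in both comparisons, and none of the 16 values passed the adjusted threshold.

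Het against WT addresses the loss of 1 allele. Here 7 of the 8 genes had a fold change below 0, with a median of -0.65, against 49.7% of all genes. None passed the adjusted threshold, as for 0.0% of all genes. Junb and Ier3 were lower at an unadjusted edgeR p under 0.05, or 2 of 8 against 19.8% of all genes (11.6% lower and 8.26% higher). Leaving out 1 mouse gave 1 (without WT-2404, WT-1860 or Het-2066) to 5 (without WT-2067) of the genes then tested. The fit without WT-2067 tested all 10, and Fosl1 entered it only through the WT mice, where it is high. Without WT-2067, 1158 of all 14172 genes then tested passed even after adjustment. The share of all genes at an unadjusted p is not given for these fits. DESeq2 called 0 of the 8, against 2.92% of all genes. Junb and Ier3 also had all Het mice below all WT mice, as did 13.5% of all genes, and Myc had all Het mice above all WT mice, as did 11.3%. The comparisons with WT share the same 3 WT mice, so their values are not independent of each other.

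KO against Het sets the floxed groups against each other, while the WT mice still entered the shared fit that set the spread and the scaling. The log2 fold changes were 0.14 for Fos, 0.04 for Fosl2, 0.66 (SE 0.43) for Jun, 0.08 for Junb, 0.54 (SE 0.53) for Egr1, -0.02 for Atf3, 0.36 (SE 0.32) for Myc and 0.14 for Ier3. Leaving out 1 mouse moved Jun to between 0.20 and 1.06 and Myc to between 0.011 and 0.57, both lowest without KO-2126. None of the 8 had an edgeR p under 0.05 even without adjustment, as against 0.752% of all genes (0.351% lower and 0.402% higher). Of the 8, 1 was below 0 (48.6% of all genes were), and 0.0% of all genes passed after adjustment. In a fit of the trend per floxed allele over the 10 mice (adjusted p under 0.05 for 0.0% of all genes), the slope was 0.49 (SE 0.16) for Myc, -0.57 (SE 0.21) for Junb and -0.53 (SE 0.20) for Ier3 on the log2 scale. The edgeR adjusted p-values of these slopes were 0.151, 0.168 and 0.174.

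**Figure D3:**
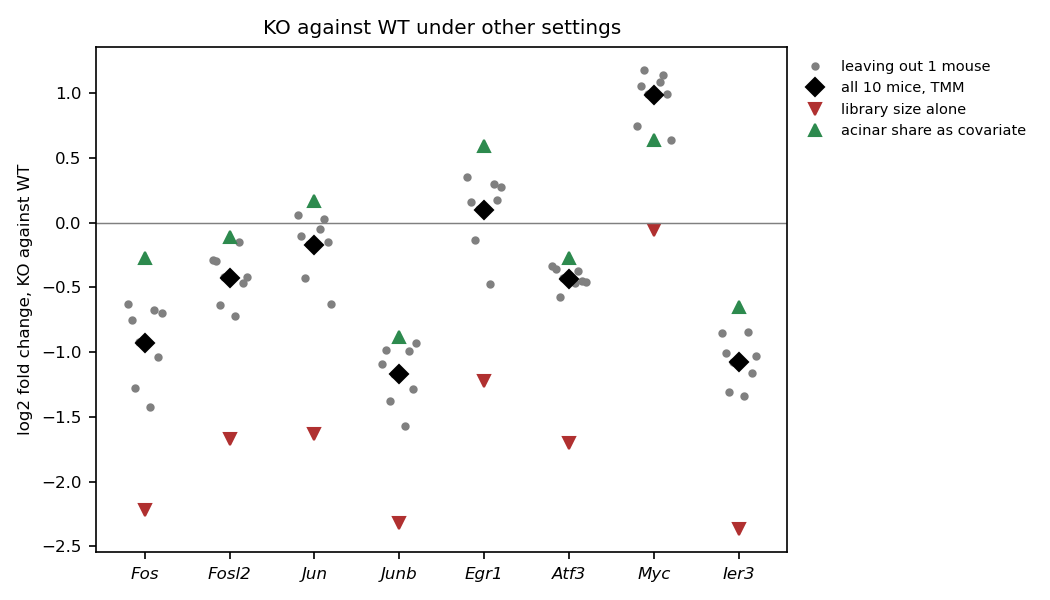
Log2 fold change of KO against WT for the 8 tested genes (vertical axis) with all 10 mice and TMM scaling (diamonds), with 1 mouse left out (grey points), with library size alone (downward triangles) and with the acinar share of counts as a covariate (upward triangles). Junb and Ier3 stay below 0 in each setting shown, while Myc drops to -0.057 with library size alone and Jun and Egr1 lie on both sides of 0.

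With the share of acinar counts in each mouse added to the model, the fold changes for KO against WT were smaller for Fos (-0.27), Fosl2 (-0.11), Junb (-0.88), Atf3 (-0.27), Ier3 (-0.65) and Myc (0.64). Egr1 went from 0.10 to 0.59 and Jun from -0.17 to 0.17 in the same fit. The edgeR adjusted p-values were then 0.990 for Fos, 0.903 for Junb, 0.911 for Ier3 and 0.902 for Myc, and 0 of the 8 genes had an unadjusted p under 0.05. In that fit 0 of all 13688 genes passed the adjusted threshold, and the smallest edgeR adjusted p was 0.750. The share of all genes at an unadjusted p is not given for it. The share was 16.6% to 74.5% in WT and 65.5% to 80.8% in KO, so it moves with the genotype and with these genes. Its part in the differences was not tested beyond this fit.

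Across the 10 mice, Fos, Junb and Ier3 were correlated with each other in all 3 pairs, by Pearson and by Spearman. Of the 28 pairs among the 8 tested genes, 21 had a positive Pearson r of log2 CPM, with a median of 0.57. After Benjamini-Hochberg adjustment over the 28 permutation tests (two-sided), 6 pairs passed 0.05 by Pearson and 6 by Spearman. Fos and Junb had an r of 0.92 (permutation adjusted p = 0.00541, rho = 0.88 with permutation adjusted p = 0.0142). This value was 0.90 without WT-2404, 0.90 without the 2 mice farthest from the median of Fos and 0.95 in the 7 Het and KO mice. Ier3 went with Fos at an r of 0.90 and a rho of 0.84 (permutation adjusted p = 0.00541 and 0.0221) and with Junb at an r of 0.86 and a rho of 0.90 (permutation adjusted p = 0.00818 and 0.0122). Its r with Fosl2 was 0.86 and its rho 0.67 (permutation adjusted p = 0.00818 and 0.120). Fos and Fosl2 had an r of 0.85 and a rho of 0.84 (permutation adjusted p = 0.00541 and 0.0221). Without the 2 mice farthest from the median of Fos, its r was 0.79 with Ier3 and 0.82 with Fosl2. Both were short of the threshold (permutation adjusted p = 0.0778 and 0.0609). By the same rule Fosl2 with Ier3 had 0.68 and Junb with Ier3 0.98 (permutation adjusted p = 0.190 and 0.00434). In the 7 Het and KO mice the r of Ier3 was 0.87 with Fos, 0.89 with Fosl2 and 0.68 with Junb, and that of Fos with Fosl2 0.81. Atf3 and Ier3 had an r of 0.86 and a rho of 0.75 (permutation adjusted p = 0.0123 and 0.0718). The r was 0.64 without the 2 mice farthest from the median of Atf3. Egr1 went with Fosl2 at a rho of 0.90 and with Fos at a rho of 0.82 (permutation adjusted p = 0.0122 and 0.0285), while its r with them was 0.62 and 0.64 (permutation adjusted p = 0.116 and 0.101). Jun passed with no gene over the 10 mice. Its r with Junb was 0.20 and with Ier3 0.62. Without the 2 mice farthest from the median of Jun these were 0.82 and 0.87, the latter past the threshold (permutation adjusted p = 0.032). The number of pairs that passed by Pearson was 5 without WT-2404 and 4 without the 2 farthest mice, and by Spearman 2 and 2. Farthest means from the median of the gene of each pair that comes first in the opening list.

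Myc and Junb pointed in opposite directions, with an r of -0.73 (permutation adjusted p = 0.0543) and a rho of -0.66 (permutation adjusted p = 0.120), short of the threshold. By mouse, WT-2404 was among the highest 3 for 7 of the 8 genes, WT-1860 for 6 and KO-2079 for 5. KO-2070 was among the lowest 3 for 7 of the 8, and KO-2126 had the highest Jun and Myc and the lowest Junb. WT-2067, Het-2042 and KO-2124 were among the highest 3 or among the lowest 3 for at most 3 genes each. KO-2126 was among the highest 3 for 2 genes and among the lowest 3 for 2.

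**Figure D4:**
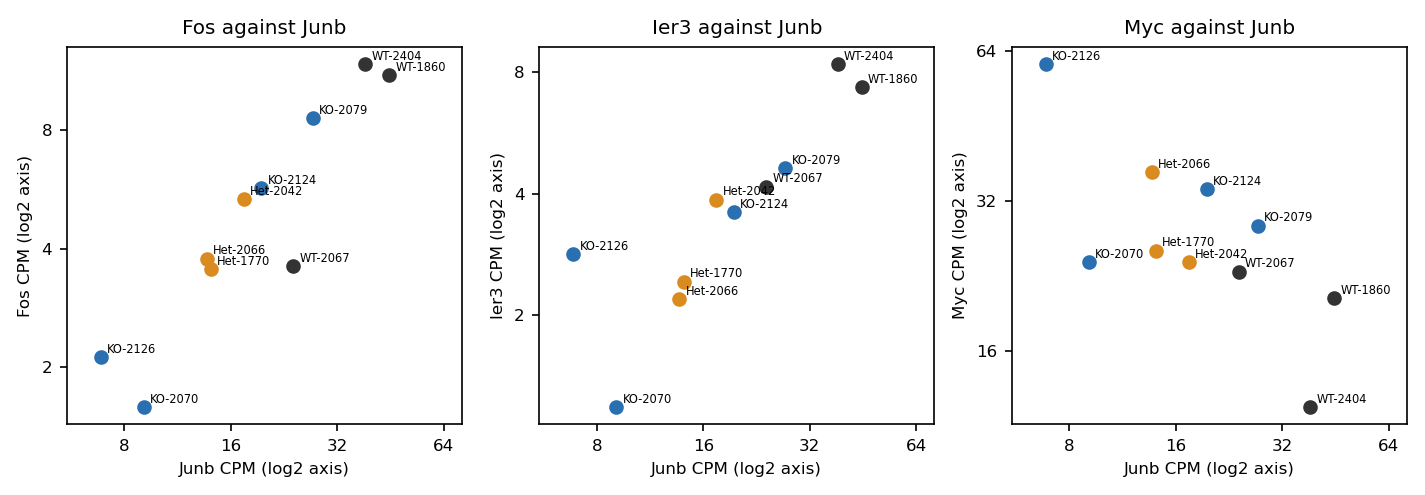
Level of Fos, Ier3 and Myc (vertical axes) against Junb (horizontal axes) in each of the 10 mice, in CPM on log2 axes, coloured by group. Fos and Ier3 climb with Junb from KO-2070 and KO-2126 to WT-2404 and WT-1860, while Myc is highest in KO-2126, where Junb is lowest.

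Markers of other cell types moved with the same genes. The summed level of 10 myeloid markers lay between 428 and 1633 CPM in WT mice, 227 and 346 in Het mice and 132 and 480 in KO mice, and none of the 10 was at 0 in any mouse. The 9 fibroblast markers summed to between 1307 and 4529 CPM in WT mice, 558 and 1052 in Het mice and 511 and 1188 in KO mice, again with none at 0. The 8 ductal markers, none of them at 0, summed to 788 to 931 CPM in WT, 410 to 734 in Het and 410 to 667 in KO. Of the markers of these types, 10 of 10 myeloid, 8 of 9 fibroblast and 7 of 8 ductal genes had a fold change below 0 for KO against WT, with medians of -1.67, -1.36 and -0.97. Without WT-2404 these medians were -0.91, -0.997 and -0.91. Acinar markers were above 0 in 29 of 29 (median 1.20, and 0.62 without WT-2404). Lymphoid markers were below 0 in 7 of 7 (median -1.19, with Cd3d, Cd8a and Ms4a1 at 0 in at least 1 library), endothelial markers in 1 of 4 (median 0.17), and islet and adipocyte markers in 0 of 6 and 0 of 5 (medians 0.82 and 0.63).

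Several of the genes followed those sums mouse by mouse, in 32 relations computed after the data were seen. Junb followed the myeloid sum with an r of 0.90 (permutation adjusted p = 0.00507, rho = 0.93 with permutation adjusted p = 0.0024), which was 0.94 without WT-2404, 0.95 without the 2 farthest mice (KO-2070 and WT-2404) and 0.92 in the 7 Het and KO mice. Fos followed it with an r of 0.90 (permutation adjusted p = 0.00507, rho = 0.88) and Ier3 with an r of 0.89 (permutation adjusted p = 0.00507, rho = 0.88). Ier3 and Atf3 each followed the fibroblast sum with an r of 0.88 (permutation adjusted p = 0.00507 for both), with a rho of 0.93 for Ier3 and 0.76 for Atf3. Myc ran against the fibroblast sum (r = -0.82, permutation adjusted p = 0.0164, rho = -0.71), but in the 7 Het and KO mice the value was -0.49. Fos and Junb ran against the acinar sum, each with a rho of -0.94 (permutation adjusted p = 0.0024), with an r of -0.73 for Fos and -0.69 for Junb (permutation adjusted p = 0.0142 and 0.0299). Ier3 did so with an r of -0.74 and a rho of -0.84 (permutation adjusted p = 0.027 and 0.0145). In the 7 Het and KO mice the r with the acinar sum was -0.71 for Fos, -0.70 for Junb and -0.55 for Ier3. With the ductal sum, Atf3 had an r of 0.82 and Ier3 of 0.76 (permutation adjusted p = 0.0109 and 0.0269). In the 7 Het and KO mice the r with the ductal sum was 0.76 for Atf3 and 0.47 for Ier3. Jun and Egr1 passed the threshold with none of the 4 sums. The points share their libraries, and the part of cell composition in the levels of the genes was not tested.

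The most similar genes in the table, by Spearman's rho over the 10 mice among 13688 genes, were Pik3r5, Ptpre and Dok3 for Fos (0.988, 0.976 and 0.976) and H2-Eb1, Csf2rb2 and Fzd1 for Junb (0.988 each). Those for Ier3 were Samd5, Gapt and Serpinh1 (0.988 each), and those for Atf3 were Gli2, Lamc1 and Sema3e (0.964 each). H2-Eb1 encodes an MHC class II chain, and Serpinh1 the collagen chaperone HSP47. For Myc they were Snhg1, Txnip and Pus1 (0.988, 0.964 and 0.952). Txnip, which encodes a glucose-responsive inhibitor of thioredoxin, had a mean level of 317 CPM in WT, 750 in Het and 880 in KO. For Fosl2 they were P2ry10, Il1rl1 and Gulo (0.964, 0.952 and 0.939), for Jun Unc119, Slc35b4 and Irf2 (0.939, 0.927 and 0.915), and for Egr1 Poglut1, Nup37 and Snapc5 (0.939, 0.927 and 0.927). Each is the top of a ranking over all genes tested, so the values are given as a description.

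Genes that AP-1 is known to drive were lower in both comparisons with WT. Of 16 tested of 19 such genes, 15 had a fold change below 0 for KO against WT (48.2% of all genes), with a median of -1.52 against 0.03 for all genes, and the median was -1.36 without WT-2404. At an unadjusted edgeR p under 0.05, 11 were lower (13.9% of all genes) and 0 higher (9.6%), 8 fell by DESeq2 at an adjusted p under 0.05 (7.37% of all genes were called), and 9 had every KO mouse below every WT mouse (9.17% of all genes). For Het against WT 15 of 16 were below 0 (49.7% of all genes) with a median of -1.47, and 4 fell by DESeq2 (2.92% of all genes were called). Mmp3, the stromelysin that cuts matrix proteins, lay at 12.4 ± 7.0 CPM in WT, 3.21 ± 0.123 in Het and 1.94 ± 0.924 in KO (SD), a log2 fold change for KO of -2.61 (SE 0.41, DESeq2 adjusted p = 4.11e-05, edgeR adjusted p = 0.116). Timp1, an inhibitor of such proteases, lay at 30.6 ± 22.2, 5.07 ± 0.389 and 3.34 ± 3.10 CPM, with a log2 fold change of -3.11 (SE 0.67, DESeq2 adjusted p = 0.00106). Tnc, the matrix protein tenascin C, showed -2.52 (SE 0.66, DESeq2 adjusted p = 0.0269). The edgeR adjusted p of these 3 genes was 0.116 each. Several genes of the list are also made by fibroblasts and myeloid cells, whose marker sums are given above.

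The other immediate early genes did not share one direction. Of 39 tested of 42, 17 were below and 22 above 0 for KO against WT, with a median of 0.16. Here 7 were lower (13.9% of all genes) and 4 higher (9.6%) at an unadjusted edgeR p under 0.05, and 2 fell by DESeq2 (7.37% of all genes were called), shares near those of all genes. Those 2 were Socs3, a feedback inhibitor of cytokine and insulin signalling (17.1 ± 3.37 CPM in WT, 7.52 ± 0.767 in Het and 8.77 ± 3.36 in KO, a log2 fold change for KO of -0.94 with SE 0.26, DESeq2 adjusted p = 0.0314), and Phlda1 (-1.50 with SE 0.43, DESeq2 adjusted p = 0.0253). Hbegf, a ligand of the EGF receptor, showed -1.04 (SE 0.37, DESeq2 adjusted p = 0.0797), and Zfp36l1, which destabilises messenger RNAs, -0.73 (SE 0.27, DESeq2 adjusted p = 0.0881, and -0.47 without WT-2404). The 4 on the higher side were Sik1 (1.24), Dusp1 (1.15), Nr4a2 (1.13) and Btg2 (0.88), named after their values were seen.

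**Figure D5:**
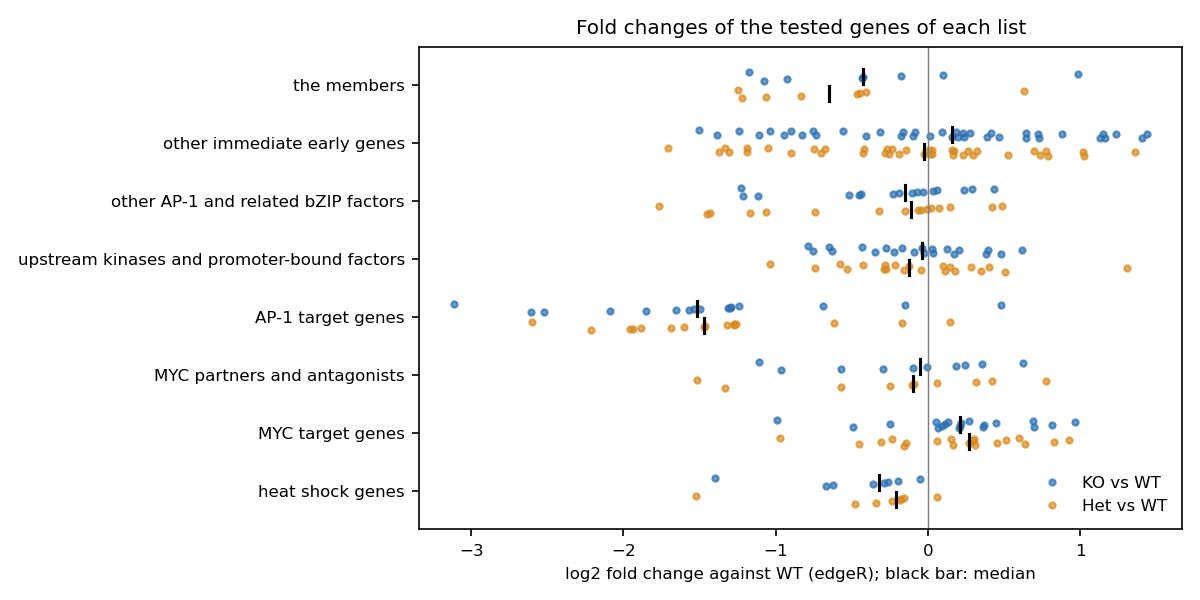
Log2 fold change against WT (edgeR, horizontal axis) of each tested gene in each list, 1 point per gene for KO and for Het, with a black bar at the median. AP-1 target genes have medians of -1.52 (KO) and -1.47 (Het), while other immediate early genes, other AP-1 factors and upstream kinases are spread about 0.

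Other AP-1 and related bZIP factors were below 0 in 11 of 16 tested for KO against WT, with a median of -0.15. Maf, a bZIP factor of macrophages among other cells, fell by DESeq2 (log2 fold change -1.21 with SE 0.40, DESeq2 adjusted p = 0.0489, edgeR adjusted p = 0.128) but showed -0.53 without WT-2404. Batf3 (-1.23, SE 0.69) and Mafk (0.43, SE 0.26, and 0.29 without WT-2404) had edgeR adjusted p-values of 0.291 and 0.318. Of 21 upstream kinases and promoter-bound factors, 12 were below 0 with a median of -0.04, and 0 were called by DESeq2. Rps6ka1, the kinase RSK1 downstream of ERK, showed -0.65 (SE 0.22, edgeR adjusted p = 0.128), Mkl1, a coactivator of SRF, -0.79 (SE 0.29, edgeR adjusted p = 0.141), Mapk3, which encodes ERK1, -0.43 (SE 0.19, edgeR adjusted p = 0.194) and Elk3, a ternary complex factor, -0.63 (SE 0.29, edgeR adjusted p = 0.211, and -0.36 without WT-2404).

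Known MYC target genes were mostly above 0, as Myc was: 16 of 19 for KO against WT, with a median of 0.21, and 13 of 19 for Het against WT, with a median of 0.27. Of all genes, 48.2% and 49.7% were below 0 in these comparisons. At an unadjusted edgeR p under 0.05, 4 were higher (9.6% of all genes) and 2 lower (13.9%) for KO against WT, and 1 fell by DESeq2 (7.37% of all genes were called). Odc1, the first enzyme of polyamine synthesis, had a log2 fold change of 0.81 (SE 0.28, edgeR adjusted p = 0.133). Cad, of pyrimidine synthesis, showed 0.70 (SE 0.22, edgeR adjusted p = 0.121), and Polr1b, a subunit of RNA polymerase I, 0.69 (SE 0.23, edgeR adjusted p = 0.129). These 3 were above the median gene under TMM scaling, and with library size alone they turned to -0.33, -0.50 and -0.51 against a median gene of -1.17. Ldha, lactate dehydrogenase, was the 1 that fell by DESeq2 (-0.99, SE 0.25, DESeq2 adjusted p = 0.0147), and showed -0.62 without WT-2404. Among 10 partners and antagonists of MYC, 6 were below and 4 above 0, and none was called by DESeq2 for KO against WT. Mlx, a partner of the glucose-responsive MLXIPL, showed 0.63 (SE 0.20, edgeR adjusted p = 0.123), Mycn -0.57 (SE 0.34, edgeR adjusted p = 0.319), Mycl -0.97 (SE 0.58, edgeR adjusted p = 0.321) and Mxd4 0.36 (SE 0.22, edgeR adjusted p = 0.330). Leaving out 1 mouse brought Mycn to -0.27, Mycl to -0.63 and Mxd4 to 0.19 at the nearest to 0. With library size alone Mlx turned to -0.45 and Mxd4 to -0.93, against the same median gene of -1.17.

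Heat shock genes, which respond to stress and to the handling of tissue, were below 0 in 8 of 8 for KO against WT, with a median of -0.32. Their summed level was 327 to 424 CPM in WT, 289 to 358 in Het and 262 to 344 in KO, so the ranges overlapped, and Hspa1a was at 0 in at least 1 library. Hspa1b, an inducible HSP70, lay at 3.70 ± 1.02 CPM in WT, 1.26 ± 0.616 in Het and 1.39 ± 0.465 in KO (SD) and fell by DESeq2 (-1.40, SE 0.40, DESeq2 adjusted p = 0.0223, edgeR adjusted p = 0.116). Bag3, its co-chaperone, showed -0.62 (SE 0.24, edgeR adjusted p = 0.158), Hsp90aa1 -0.36 (SE 0.19, edgeR adjusted p = 0.274) and Hspa8 -0.29 (SE 0.24, edgeR adjusted p = 0.476), the last pair -0.18 and -0.15 without WT-2404.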

How the data were processed

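The deposited data are raw read counts per gene, as whole numbers, for 10 pancreas samples of female mice, made by the authors with DRAGEN, STAR and Cufflinks on the build mm10, per the submitters' processing notes. The role and version of each tool, the annotation and the use of strand are not given in the sources used here. Groups were taken from the labelled genotypes; 1 more element of the genotype, common to them, and 2 genes that the naming rule below would pick are not reported here. Reads assigned to no gene were 2.59% to 8.71% and ambiguous reads 0.101% to 0.584% of all counts, these reads included. The 2 rows holding them were left out. All columns matched a mouse. Mice of a group differed by far more than sampling noise (chi-square per degree of freedom 26.5 to 988). No source says that litters or days were shared.

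Counts were fitted in R 4.3.3 with edgeR 4.0.16 (limma 3.58.1): filterByExpr with a minimum count of 10, TMM factors, 1 robust quasi-likelihood fit over the 10 libraries, and Benjamini-Hochberg adjustment over the 13688 genes tested, with a threshold of 0.05. DESeq2 1.42.0 was an alternative. The code was tested on simulated data. Fosl1 and Fosb did not pass the filter, and were compared by log2 CPM with exact permutation tests of the difference of means (two-sided) and by pooled counts with exact 95% intervals. Correlations and the exact permutation tests used log2 CPM with a prior count of 2. Gene lengths and positions come from an mm10 annotation (GENCODE M21). The genes, lists and tests were chosen with earlier results of these data known. All 10 genes are named; of each other list, the 4 genes with the smallest edgeR p for KO against WT; and the 3 genes most alike to each tested gene. Alternatives were DESeq2, no filter, library size alone, TMM factors without the acinar markers, only the groups compared, the acinar share as a covariate, and leaving out each mouse.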

Additional observations from a re-analysis of the deposited data

Results flagged for a closer look

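The Fosl1 level of KO-2124, 0.0461 CPM, was set apart from the other 3 KO mice by a Dixon test, since those are at 0. It stands for 1 read. Of 10 groups of 4 mice tested in this way, 1 was picked out, and chance alone would pick about 0.5.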

How the results depend on the processing

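No paired analysis was possible because the groups share no replicate numbers. With DESeq2, 1009 genes (294 of them higher) passed an adjusted p of 0.05 for KO against WT, 400 (153 higher) for Het against WT and 436 (110 higher) for the trend per floxed allele, against 0 with edgeR. With library size alone, edgeR called 2835 and 3125 genes for KO and for Het against WT, 0 of them higher. Under that scaling 3 of the 8 tested genes passed for KO against WT (Fos, Junb and Ier3), against 20.7% of all genes. For Het against WT 5 of the 8 passed (with Fosl2 and Jun), against 22.8% of all genes. Leaving out 1 mouse in turn gave 0 to 1933 genes for KO against WT, 0 to 1158 for Het against WT, both maxima without WT-2067, and 0 to 11 for the trend (11 without KO-2079, 1 without KO-2124). The number of the 10 genes past the threshold for KO against WT was then 0 to 2, the 2 without WT-2067 being Ier3 and Fosl1. Fosl1 enters that fit only through its counts in the 2 WT mice left, the group where it is high, so its call is no support. The cause was not tested.

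With library size alone, which moved the median of all genes to -1.17 for KO and -1.36 for Het against WT, the direction turned for Egr1 (-1.22), Myc (-0.057), Mafk (-0.66), Mlx (-0.45), Mxd4 (-0.93), Cad (-0.50), Polr1b (-0.51) and Odc1 (-0.33) for KO against WT (all but Egr1 above that median), for Myc (-0.51) for Het against WT, for Atf3 (0.16) for KO against Het, and for Egr1 (-0.57) and Myc (-0.011) in the trend. With the acinar share as a covariate it turned for Jun (0.17) for KO against WT, Egr1 (0.059) for Het against WT and Jun (0.18) in the trend. Leaving out 1 mouse gave -0.63 to 0.059 for Jun and -0.48 to 0.35 for Egr1 for KO against WT, and -0.32 to 0.086 for Jun and -0.24 to 0.21 for Egr1 in the trend. For KO against Het it gave -0.15 to 0.074 for Atf3, -0.033 to 1.13 for Egr1, -0.36 to 0.39 for Fos, -0.26 to 0.31 for Fosl2, -0.12 to 0.45 for Ier3 and -0.33 to 0.32 for Junb. Junb, Ier3 and Fos were below 0 against WT in all settings run, for KO and for Het. Depth limits Fosl1 and Fosb, for which 3 counts stand for 0.0501 to 0.395 CPM.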
